A study of Mus musculus with 9 samples.

Results

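Small nucleolar RNA (snoRNA) loci and their noncoding host genes were followed across poly(A) RNA of a mouse kidney cell line in which the RNase Drosha, which excises microRNA hairpins in the nucleus, was knocked down. Members were taken by gene symbol: all genes named Snord, Snora or Snhg with a number, and Gas5. They numbered 136 of the 55357 genes in the table. Of these, 86 were Snord genes, which encode box C/D snoRNAs, 35 were Snora genes, which encode box H/ACA snoRNAs, and 15 were host genes, 14 of them Snhg genes beside Gas5.

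The cells were SV40-MES-13, a line made from kidney of mice carrying SV40 genes and labelled as mesangial. All groups carried a lentiviral vector: an empty vector (EV, 2 libraries), the Drosha shRNA sh5 (1 library) or the Drosha shRNA sh7 (2 libraries). The shRNAs were cloned in pLL3.7. Titles call the shRNA cells knockouts and the protocols describe knockdown. The time after infection, and whether the replicates came from separate infections, are not stated in the labels. The values were TPM (a level per transcript length that sums to the same total in each library). The other 4 of the 9 samples, small RNA libraries, were not analysed here. The shRNA sequences below tell the knockdown groups apart, and their positions in the Drosha transcript were not looked up here.
sh5: cctggaatatgtccacacttt
sh7: gtgtgcccattgaaataaa

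Most vertebrate snoRNAs are made from introns. The host transcript is spliced, the intron lariat is opened, and exonucleases trim the intron down to the part that the snoRNP proteins cover. Box C/D snoRNAs guide 2′-O-methylation of ribosomal RNA and box H/ACA snoRNAs guide its pseudouridylation, while a few, such as U3 and U17, act in cleavage of the ribosomal precursor. The hosts are either genes for ribosomal proteins and translation factors or noncoding Snhg genes, whose spliced RNA is polyadenylated and, for several of them including Gas5, is removed by nonsense-mediated decay. A mature snoRNA has no poly(A) tail, so in poly(A)-selected RNA the host value reports the spliced transcript, and a value at a snoRNA locus can come from unspliced or lariat intron RNA or from carried-over small RNA, which TPM cannot tell apart.

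The libraries differed in ways the groups do not follow. Across 12728 tested genes the EV libraries had a Pearson r of 0.968, below that of the sh7 pair (0.983) and of EV replicate 2 with sh5 (0.982), and more than a 2-fold gap separated the EV libraries at 613 genes. Drosha itself stood at 60.0 and 56.4 TPM with the empty vector, 36.0 TPM under sh5 and 8.39 and 14.9 TPM under sh7. The 9 mesangial markers summed to between 1.56 and 3.73 TPM per library and none reached a mean of 1 TPM, while all 6 epithelial markers did, with sums of 631 to 895 TPM. The mesangial label therefore has no marker at that level, and the cells are called by their line name here. Fewer cells with a transcript and less of it per cell cannot be told apart in these bulk samples.

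The noncoding hosts came as a steep series of levels. Gas5, the growth arrest-specific host of a row of box C/D snoRNAs, stood at 585 and 799 TPM in the EV pair, at 898 TPM with sh5 and at 935 and 726 TPM in the sh7 pair. It made up 49.5% to 54.1% of the summed host TPM in each library. Its highest EV library lay above its lower sh7 library, so the sh7 and EV groups overlapped. The log2 difference from EV was 0.27 in sh7 (SE 0.199, limma adjusted p = 0.544) and 0.39 in sh5 (SE 0.244, limma adjusted p = 0.625). Snhg8, whose span holds Snora24, stood at 179 and 245 TPM with the empty vector, 270 TPM under sh5 and 245 and 183 TPM under sh7. Snhg6, the host of Snord87, stood at 145 and 228 TPM in the EV pair, at 236 TPM with sh5 and at 223 and 228 TPM in the sh7 pair. In Snhg8 and Snhg6 alike, EV replicate 1 was the lowest library and the other EV library lay among the knockdown values. Levels of these 3 genes differ from each other by more than their spread, except that Snhg8 and Snhg6 overlap.

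RNAs of the translation machinery and several snoRNA hosts start with a pyrimidine run, a feature of transcripts with a terminal oligopyrimidine (TOP) tract. Promoters of 3 of the hosts are shown, picked by mean TPM from hosts on a subset of chromosomes and not by motif. Each spans 250 bases before to 50 after the annotated start in RefSeq on GRCm38.p6. In Gas5 (chr1:161034916-161035215, plus strand) the capitals mark CCTTT near the start. In Snhg8 (chr3:123508287-123508586, minus strand) they mark a TATAA upstream of the start. In Snhg15 (chr11:6528711-6529010, minus strand) they mark CACGTG, the palindromic E-box.
Gas5: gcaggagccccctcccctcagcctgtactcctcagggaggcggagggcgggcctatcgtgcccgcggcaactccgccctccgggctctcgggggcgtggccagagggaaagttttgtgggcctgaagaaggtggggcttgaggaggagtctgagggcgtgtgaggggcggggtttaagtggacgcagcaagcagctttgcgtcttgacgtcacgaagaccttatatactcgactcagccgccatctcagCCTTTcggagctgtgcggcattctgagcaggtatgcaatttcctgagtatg
Snhg8: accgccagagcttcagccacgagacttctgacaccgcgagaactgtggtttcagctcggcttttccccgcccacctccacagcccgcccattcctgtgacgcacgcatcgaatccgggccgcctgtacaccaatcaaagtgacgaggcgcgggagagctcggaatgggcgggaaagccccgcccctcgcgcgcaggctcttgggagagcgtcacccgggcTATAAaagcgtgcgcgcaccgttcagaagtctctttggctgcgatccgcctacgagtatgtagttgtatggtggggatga
Snhg15: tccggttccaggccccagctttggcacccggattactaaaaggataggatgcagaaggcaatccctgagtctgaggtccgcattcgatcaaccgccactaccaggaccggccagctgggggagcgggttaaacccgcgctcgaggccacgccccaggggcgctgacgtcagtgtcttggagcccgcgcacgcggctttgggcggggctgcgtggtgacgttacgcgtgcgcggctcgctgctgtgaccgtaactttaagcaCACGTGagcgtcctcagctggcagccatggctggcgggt
The sense motif CCTTT between positions -10 and 30 was found in 4 of 15 host promoters of 13 genes (26.7%), those of Gas5, Snhg10, Snhg12 and Snhg16, and in 4.19% of all 32851 promoters. Sense TATAA between -45 and -10 was in 3 of the 15 (20%), in Snhg5, Snhg8 and Snhg12, and in 4.16% of all promoters. CACGTG on either strand was in the windows of Snhg15 and Snhg9 (13.3%) and in 7.15% of all, and TGATGNAA on either strand was in 0 of the 15 and in 3.97% of all. The motifs were chosen after the sequences were read and do not overlap each other, and a match is a description of letters. A second annotated Gas5 start (chr1:161034351-161034650, plus strand) held none of the 4.

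Among hosts of middle level, Snhg15, Snhg12 and Snhg17 had the widest gap between the EV libraries. Snhg12, whose span holds Snora16a and Snora44, stood at 17.8 and 60.0 TPM with the empty vector, 75.5 TPM under sh5 and 74.7 and 65.8 TPM under sh7. Snhg15 stood at 27.1 and 69.2 TPM in the EV pair, at 85.2 TPM with sh5 and at 75.2 and 68.2 TPM in the sh7 pair. Snhg17 stood at 28.5 and 49.8 TPM with the empty vector, 52.1 TPM under sh5 and 57.8 and 64.3 TPM under sh7. Snhg12 and Snhg17 were higher in all 3 knockdown libraries than in both EV libraries, and Snhg15 overlapped, with its lower sh7 value just under EV replicate 2. Most of each difference from EV lay in EV replicate 1. Against EV, the log2 difference in sh7 was 1.07 for Snhg12 (SE 0.556), 0.71 for Snhg15 (SE 0.435) and 0.68 for Snhg17 (SE 0.271), with limma adjusted p of 0.424, 0.483 and 0.353. In sh5 the log2 differences were 1.18 (SE 0.68), 0.96 (SE 0.533) and 0.45 (SE 0.332), with adjusted p of 0.609, 0.605 and 0.667.

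Not every host was low in EV replicate 1. Snhg3, the host of the U17 snoRNAs Snora73a and Snora73b, stood at 51.3 and 41.8 TPM in the EV pair, at 33.0 TPM with sh5 and at 35.1 and 31.9 TPM in the sh7 pair, and so was lower in all 3 knockdown libraries. Its log2 difference was -0.46 in sh7 (SE 0.137, adjusted p = 0.294), -0.48 in sh5 (SE 0.168, adjusted p = 0.514) and -0.47 for the knockdown libraries together (SE 0.134, adjusted p = 0.908), by limma. Snhg5 stood at 32.4 and 26.5 TPM with the empty vector, 23.1 TPM under sh5 and 26.1 and 26.6 TPM under sh7, highest in EV replicate 1 and lowest in sh5. Snhg20 went apart in the knockdowns, at 6.93 and 9.74 TPM in the EV pair, at 7.34 TPM with sh5 and at 14.5 and 18.5 TPM in the sh7 pair. Both sh7 libraries lay above the other 3, with a log2 difference of 0.91 from EV (SE 0.221, adjusted p = 0.262) and of 1.06 from sh5 (SE 0.27, adjusted p = 0.152). Its sh5 value lay between the EV libraries (log2 difference -0.15, SE 0.27, adjusted p = 0.862), and that sign turned without EV replicate 2 (0.07).

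The other hosts moved within narrower bounds. Snhg16, whose span holds Snord1a to Snord1c, stood at 23.96 and 22.99 TPM with the empty vector, 30.3 TPM under sh5 and 24.3 and 29.7 TPM under sh7, above EV in every knockdown library. Snhg4, whose span holds Snora74a, stood at 15.5 and 13.6 TPM in the EV pair, at 10.7 TPM with sh5 and at 15.6 and 17.0 TPM in the sh7 pair. It was lowest in sh5 and differed from sh7 there by 0.56 log2 units (SE 0.17, limma adjusted p = 0.18). Snhg10 ranged from 3.52 to 6.28 TPM with both EV values at or below 4.59 TPM. Snhg9 was listed at 13.8 TPM in EV replicate 2 and at 0 in the other 4 libraries, so no fold is given. Snhg11 stayed at or below 0.411 TPM and Snhg18 was listed at 0 throughout, and neither was tested.

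**Figure D1:**
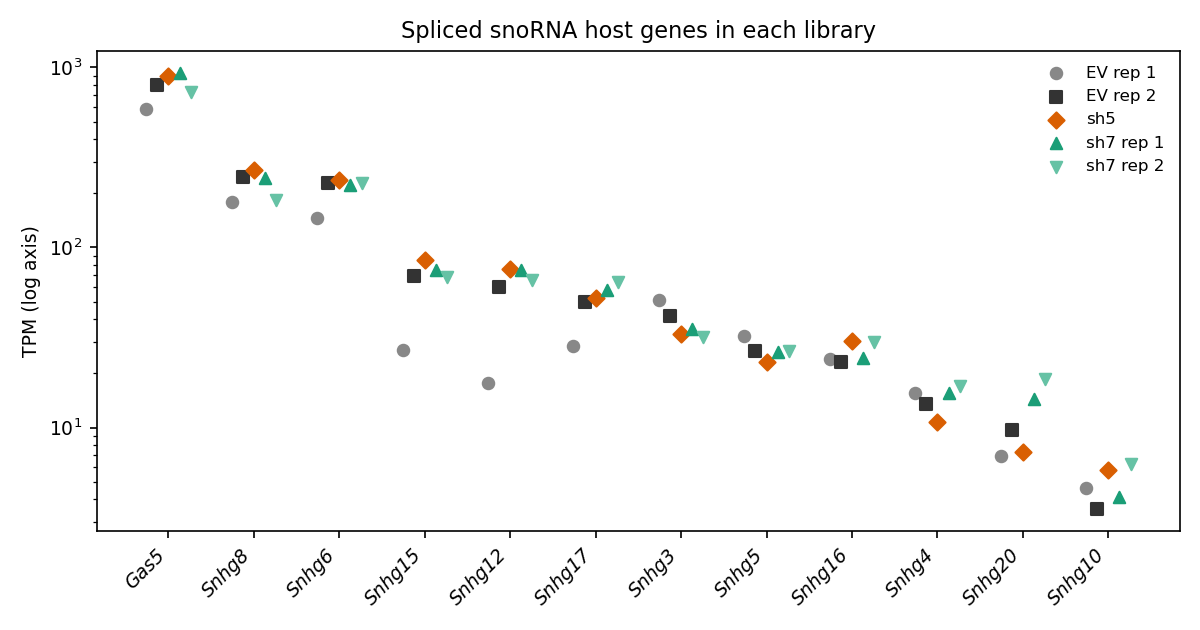
Level of each noncoding host in the 5 libraries, in TPM on a log axis, with 1 point per library. Snhg12, Snhg15 and Snhg17 show EV replicate 1 well below the other 4 libraries, and Snhg3 shows both EV libraries above the rest; Snhg9, listed at 0 in 4 libraries, is not drawn, and hosts under a mean of 1 TPM are left out.

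No member passed limma's threshold (adjusted p under 0.05 over all 12728 genes) in any of the 4 comparisons. The background was as sparse, with 0.0157% of all tested genes past it for sh7 against EV, 0% for sh5 against EV, 0.0157% for sh7 against sh5 and 0.0236% for knockdown against EV. The smallest adjusted p of a member was 0.246, 0.376, 0.12 and 0.908 in the same order. Of the 52 members that reached the filter of a mean of 1 TPM (13 hosts and 39 small RNA loci), 7, 14, 15 and 5 had an unadjusted p under 0.05, beside 14.5%, 9.55%, 20.7% and 3.76% of all tested genes.

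Described by group, the 13 tested hosts had a median log2 difference of 0.27 in sh7 and 0.36 in sh5 against EV, where all tested genes had medians of 0.09 and -0.05. For the knockdown libraries together it was 0.31 beside 0.03 for all genes. Of the 15 hosts, 5 were higher and 1 lower in both sh7 libraries than in both EV libraries, beside 35.8% and 14.3% of tested genes. In sh5, 8 were higher and 4 lower than both EV libraries, beside 26.9% and 43.7%. Against sh5, 5 hosts were higher and 5 lower in both sh7 libraries, beside 58.5% and 23.9%. Higher in all 3 knockdown libraries were 3 hosts and lower was 1, beside 12% and 7.2%. Of the 13 tested hosts, 7 had their lowest value in EV replicate 1, and the matching share over all genes was not computed. Without EV replicate 1, the host medians came down to 0.05 in sh7, 0.06 in sh5 and 0.09 for knockdown, against 0.11, -0.04 and 0.05 for all genes. A further fit took EV replicate 1 as the lone control. That fit assumes that the lone EV and sh5 libraries vary like the sh7 pair, which alone gives the spread. For sh5 it sets 1 library against 1. Calls in that fit rose over all genes as well as among the members, so its log2 differences alone are given. In sh7 they were 1.92 for Snhg12, 1.37 for Snhg15 and 1.07 for Snhg17. In sh5 they were 2.03 for Snhg12 and 1.62 for Snhg15. No host passed in a fit that held both EV libraries.

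The genes whose pattern lay nearest to the mean host pattern were Itpkc, a kinase of inositol trisphosphate, Tlr2, a receptor for bacterial lipoproteins, Ttc39c, Ampd3, an AMP deaminase, and Trmt10c, a subunit of mitochondrial RNase P. Each had a Pearson r of 0.998 over the 5 libraries, given as a description. All were lowest in EV replicate 1: Tlr2 stood at 25.4 TPM there and at 46.7 to 53.1 TPM in the other libraries.

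At the snoRNA loci themselves, 76 of 121 were listed at 0 in all 5 libraries, 58 box C/D and 18 box H/ACA. Of the other 45 loci, 17 were above 0 in every library and 28 in some. The median annotated length of box C/D loci was 90 bases for those at 0 and 76 bases for those above 0, and of box H/ACA loci 121 and 128 bases. The lowest locus above 0 stood at between 0.869 and 1.21 TPM in each library. Since a printed 0 may stand for a failed estimate, these loci are called listed at 0.

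Loci at 0 included those of the most abundant hosts. Snord47, in the span of Gas5, was listed at 0 in all libraries although Gas5 stood at 585 TPM or more in each. Snord78 and Snord80, known from human as Gas5 snoRNAs but with no match in the reference used, were also at 0. The same held for Snora24 in Snhg8, for Snora16a and Snora44 in Snhg12, for Snord1a to Snord1c in Snhg16 and for Snord22 in Snhg1. Of the 33 loci in spans of Snhg genes or Gas5, 6 were above 0 in some library, against 35 of 71 in the spans of other genes and 4 of 17 with no span found. Of those 33, 17 lay in Snhg14, the transcript of an imprinted snoRNA cluster that is mainly active in neurons, and 0 of the 17 were above 0. Hosts were found by position in the reference, without regard to strand.

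The most abundant loci each had their own pattern. Snora57, a box H/ACA locus, was listed at 0 in EV replicate 1 and stood at 42.5 TPM in EV replicate 2, 31.7 TPM with sh5 and 29.2 and 66.4 TPM in the sh7 pair. Snora62, in the gene of ribosomal protein Rpsa, was likewise listed at 0 in EV replicate 1 and stood at 15.5 TPM in EV replicate 2, 6.87 TPM with sh5 and 5.5 and 15.3 TPM in the sh7 pair. All knockdown values of Snora62 lay within its EV range, and those of Snora57 did except for sh7 replicate 2, its highest library. Snord17, in the sorting nexin gene Snx5, stood at 34.4 and 14.6 TPM with the empty vector, 17.5 TPM under sh5 and 13.4 and 4.39 TPM under sh7. Both sh7 values lay below both EV values, with a log2 difference of -1.42 (SE 0.605, limma adjusted p = 0.369), while sh5 lay within the EV range. Snord104 stood at 7.69 and 19.3 TPM in the EV pair, at 13.3 TPM with sh5 and at 13.8 and 12.9 TPM in the sh7 pair, all inside the EV range. Snord55 stood at 23.0 and 8.29 TPM in the EV pair, at 4.74 TPM with sh5 and at 15.5 and 10.9 TPM in the sh7 pair, lowest in sh5. Snord58b, in Rpl17, stood at 11.9 and 11.3 TPM in the EV pair, at 8.66 TPM with sh5 and at 8.96 and 4.15 TPM in the sh7 pair, so all 3 knockdown values lay below both EV values.

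The span of the host Snhg7 holds Snora43 and Snora17. Snora43 stood at 1.08 and 11.03 TPM in the EV pair, at 4.37 TPM with sh5 and at 10.3 and 13.2 TPM in the sh7 pair, and Snora17 at 1.04 and 8.003 TPM, 2.54 TPM, and 8.85 and 16.2 TPM in the same order. Both neighbours were lowest in EV replicate 1 and next lowest in sh5. Another gene that the reference also names Snora43, without a symbol in the table, was listed at 0 in every library. Snora2b, in Kansl2, stood at 9.45 and 4.57 TPM in the EV pair, at 0.90 TPM with sh5 and at 8.05 and 3.72 TPM in the sh7 pair, with sh7 and EV overlapping and sh5 lowest.

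Among loci higher in sh7, Snord73b, in the ribosomal protein gene Rps3a1, stood at 7.51 and 4.16 TPM with the empty vector, 5.52 TPM under sh5 and 30.6 and 16.2 TPM under sh7. Both sh7 libraries lay above the rest, with a log2 difference from EV of 1.81 (SE 0.389, limma adjusted p = 0.246). Its neighbour Snord73a, in the same host, stood at 9.69 and 4.6 TPM in the EV pair, at 2.02 TPM with sh5 and at 4.19 and 9.78 TPM in the sh7 pair, with sh7 and EV overlapping. Snord49a, in the noncoding host 2410006H16Rik, stood at 8.81 and 8.07 TPM with the empty vector, 5.36 TPM under sh5 and 19.8 and 14.0 TPM under sh7. It was highest in sh7 and lowest in sh5, with log2 differences of 0.90 from EV (SE 0.206, limma adjusted p = 0.257) and 1.47 from sh5 (SE 0.252, limma adjusted p = 0.126). Snord83b, in Rpl3, had the same order at 13.1 and 10.4 TPM in the EV pair, at 5.71 TPM with sh5 and at 20.7 and 16.3 TPM in the sh7 pair, and its log2 difference of 1.53 between sh7 and sh5 (SE 0.236) had the smallest adjusted p of any member, 0.12. The related copies Snord73a and Snord73b, and Snord49a and Snord49b, may share reads, so the split between them is uncertain. Snord89 was listed at 0 in both EV libraries and stood at 2.16 TPM with sh5 and 4.82 and 1.58 TPM in the sh7 pair. Snord37, in the elongation factor gene Eef2, was at 1.8 and 2.42 TPM with the empty vector and listed at 0 in all 3 knockdown libraries.

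In sh5 fewer loci were above 0 and their summed level was lower. Small RNA loci above 0 numbered 38 and 35 in EV, 23 in sh5 and 37 in each sh7 library. Box C/D loci numbered 25 and 20 in EV, 12 in sh5 and 21 in each sh7 library, and box H/ACA loci numbered 13 and 15 in EV, 11 in sh5 and 16 in each sh7 library. The summed TPM of the loci was 222 and 253 in EV, 131 in sh5 and 271 and 311 in sh7. The sh5 sum was 0.553 times the EV mean and the sh7 mean 1.23 times, whereas the host sums, 1117 and 1583 TPM with the empty vector, 1727 TPM under sh5 and 1730 and 1466 TPM under sh7, stood at 1.28 and 1.18 times. The locus sum per 100 TPM of Snhg and Gas5 RNA was 19.9 and 15.96 in EV, 7.60 in sh5 and 15.7 and 21.2 in sh7. Only 6 of the 45 loci above 0 lay in spans of such genes, so this ratio does not set loci against their own hosts. Divided by the summed TPM of the listed protein-coding hosts instead, the locus sum was again lowest in sh5. There both sh7 libraries lay above both EV libraries. These sums have no test: 1 sh5 library gives no replicate, and the smallest two-sided exact permutation p is 0.333 for 2 against 2 libraries and 0.2 for 3 against 2.

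**Figure D2:**
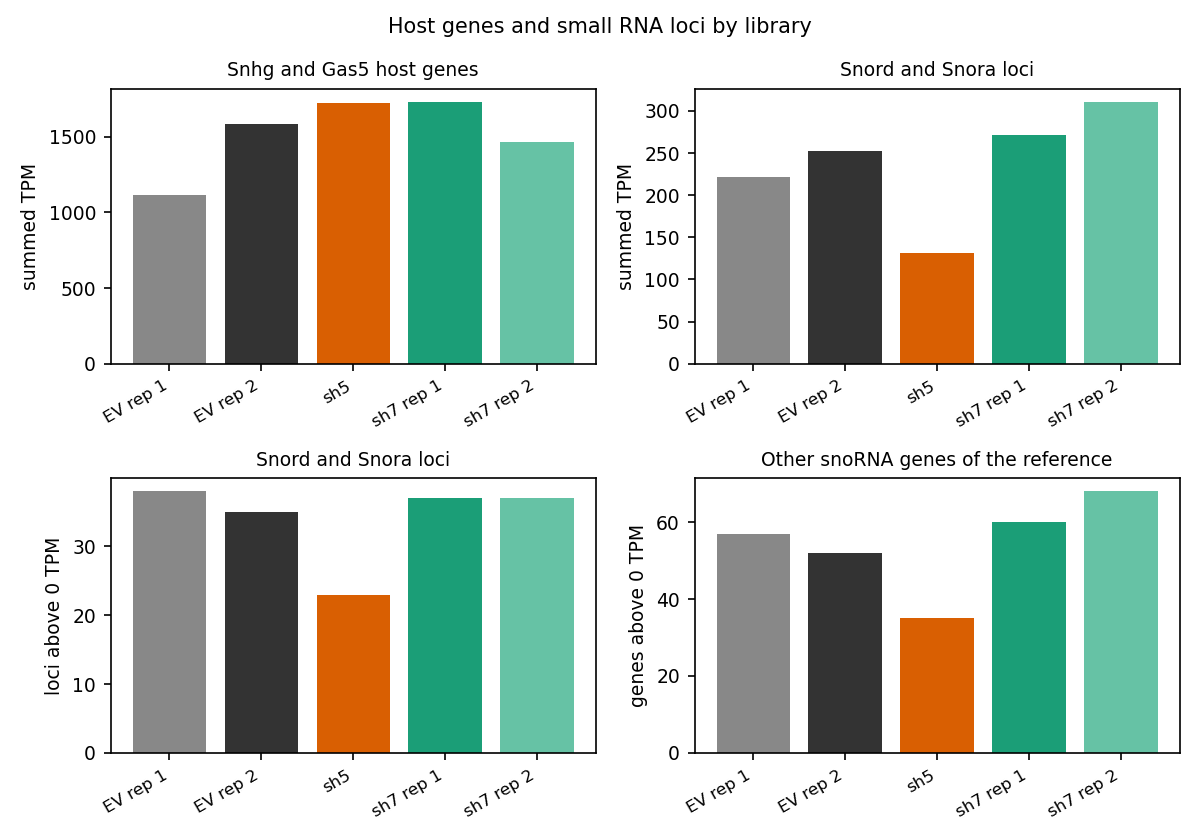
Bars give, for each of the 5 libraries, the summed TPM of the Snhg and Gas5 hosts, the summed TPM of the Snord and Snora loci, the number of those loci above 0 TPM, and the number of other snoRNA genes of the reference above 0 TPM. The sh5 bar is the lowest in the 3 panels of small RNA genes. In the host panel it is close to sh7 replicate 1 (1727 and 1730 TPM). There sh7 replicate 2 (1466 TPM) lies under EV replicate 2 (1583 TPM), and EV replicate 1 is lowest at 1117 TPM.

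Of the 31 loci above 0 in both EV libraries, 14 were listed at 0 in sh5 (45.2%) and 3 in each sh7 library (9.68%). Over all genes the share at 0 in sh5 was 6.66%, and over genes with a mean between 1 TPM and that of the most abundant locus it was 1.23%. Other genes that the reference types as snoRNA gave 19 of 40 at 0 in sh5 (47.5%), with 10% and 12.5% in the sh7 libraries. Other genes under 200 bases gave 8 of 26 in sh5 (30.8%) and 34.6% and 19.2% in sh7. Sequencing depth, RNA handling and poly(A) selection of the lone sh5 library cannot be told apart from the shRNA.

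The loci listed at 0 in sh5 but above 0 in both EV and both sh7 libraries were Snora21, Snora23, Snora41, Snora47, Snora69, Snord49b, Snord7, Snord87 and Snord88c. Snora23, in the importin gene Ipo7, stood at 6.43 and 10.1 TPM with the empty vector and 3.43 and 6.89 TPM in sh7 and was listed at 0 in sh5. Snora41, in the elongation factor gene Eef1b2, stood at 4.15 and 5.72 TPM with the empty vector and 2.66 and 1.25 TPM in sh7 and was listed at 0 in sh5. Snora31, in Tpt1, was above 0 everywhere, at 15.01 and 16.6 TPM in the EV pair, at 3.48 TPM with sh5 and at 10.9 and 20.9 TPM in the sh7 pair. Its sh5 value lay below the other 4, with a log2 difference from EV of -1.91 (SE 0.383, limma adjusted p = 0.43). On the log2(TPM + 1) scale the fitted differences of sh5 from EV were -3.19 for Snora23 (SE 0.457, limma adjusted p = 0.376), -2.56 for Snora41 (SE 0.413, limma adjusted p = 0.376) and -1.67 for Snora47 (SE 0.312, limma adjusted p = 0.396), values that depend on the added 1 TPM because sh5 is at 0.

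Counting loci whose libraries do not overlap, 25 of the 45 were lower in sh5 than in both EV libraries and 5 were higher, beside 32.2% and 23.7% of genes above 0 in some library. At the loci's own level, in genes with a mean of 1 TPM up to the highest locus mean, 46.8% were lower in sh5, so lower values in sh5 were common in that range. In both sh7 libraries 25 loci were higher and 2 lower than in sh5, beside 43.9% and 20.5% of genes above 0 in some library. Among tested genes, which hold 39 of the 45 loci, those shares were 58.5% and 23.9%, so higher values in sh7 than in sh5 were common there. Against both EV libraries, 8 loci were higher and 7 lower in both sh7 libraries, beside 27.6% and 9.81% of genes above 0 in some library. Among tested genes those shares were 35.8% and 14.3%. Over all 3 knockdown libraries 3 loci were higher and 6 lower than in EV, beside 8.79% and 5.8%. The sh5 library held the lowest value, with no tie, of 19 of the 45 loci and the highest of 1. The matching shares over all genes were not computed.

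**Figure D3:**
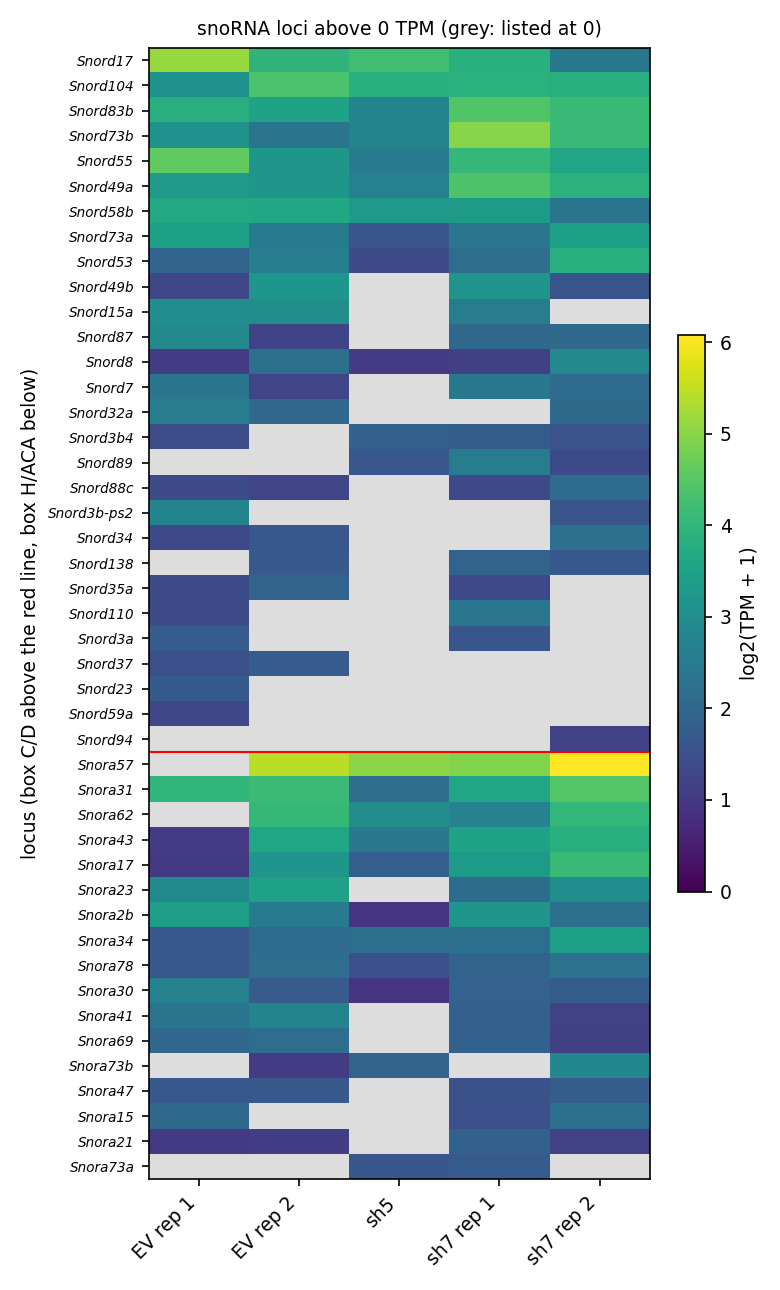
Each of the 45 loci above 0 TPM in some library, with color for log2(TPM + 1), grey for a value listed at 0, and 1 column per library. The sh5 column holds 22 grey cells, and Snord37 is grey in all 3 knockdown columns.

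The spliced hosts were set beside their loci as a control for intronic RNA. Of the 121 loci, 108 matched the reference and 38 of the 45 above 0 lay in the span of a gene in the table (32 hosts). In sh5, 25 of these 38 loci lay below both EV libraries and 3 above, beside 32.2% and 23.7% of genes above 0 in some library. Their hosts, counted once per locus, lay below in 12 pairs and above in 13, beside 43.7% and 26.9% of tested genes. The locus was below with a host not below in 19 pairs, with a host above in 8 of those, and both were below in 6. The median log2 difference of the loci was -1.05 and that of the hosts 0.004. Most pairs, 34 of the 38, had a host other than an Snhg gene or Gas5, with medians of -1.19 and 0.004. The 4 pairs with an Snhg host went the other way, with medians of 0.49 for the loci and -0.48 for the hosts. Of these 4 loci, 2 lay below both EV libraries and 2 above. In sh7, 7 loci lay below both EV libraries and 5 above, beside 9.81% and 27.6% of genes above 0 in some library. The hosts, again counted once per locus, lay below in 16 pairs and above in 4, beside 14.3% and 35.8% of tested genes. The medians of loci and hosts in sh7 were 0.08 and -0.05.

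**Figure D4:**
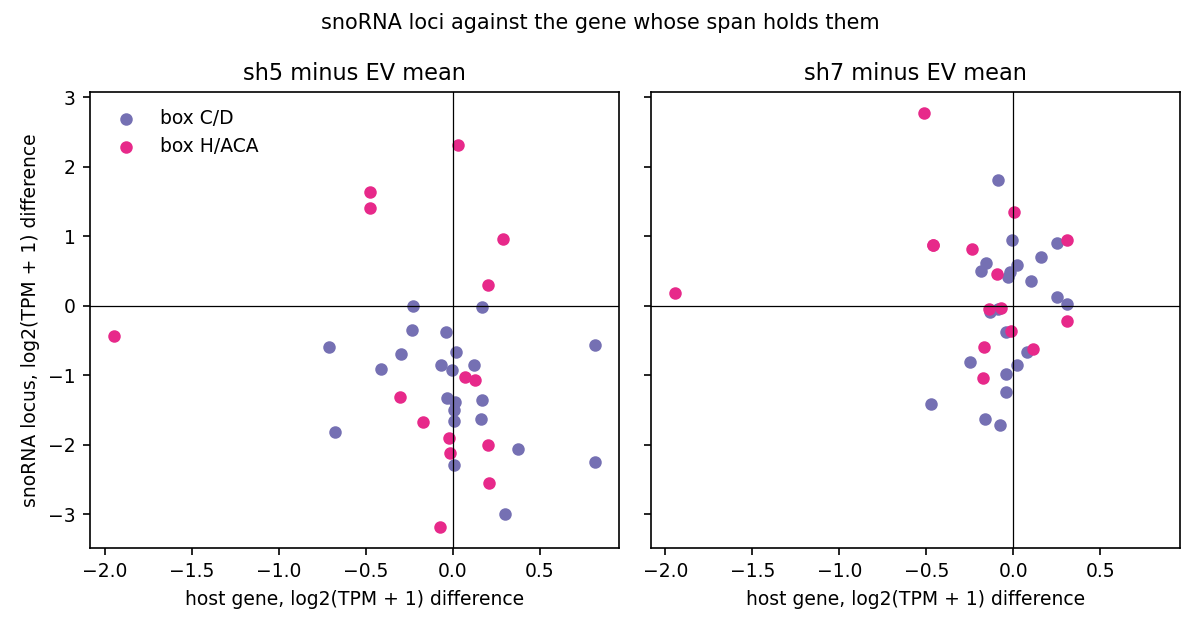
Log2(TPM + 1) difference from the EV mean for the 38 loci (vertical axis) and for the gene whose span holds them (horizontal axis), for sh5 in the left panel and sh7 in the right, with 1 point per locus. In sh5 most points lie below 0 on the vertical axis and near 0 on the horizontal axis, with medians of -1.05 and 0.004.

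Single pairs differed. Eef1b2, the host of Snora41, stood at 886 and 995 TPM with the empty vector and 1083 TPM in sh5, where the locus was listed at 0. Snhg6 stood at 236 TPM in sh5 while Snord87 in its span, at 6.28 and 1.38 TPM in EV, was listed at 0 there. The host 2410006H16Rik stood at 303 and 521 TPM with the empty vector, 701 TPM under sh5 and 520 and 429 TPM under sh7, highest where Snord49a was lowest. Rps3, a ribosomal protein gene, was highest in sh5 at 2463 TPM, where Snord15a in its span was listed at 0, against 6.83 and 7.08 TPM in EV. Snord15a was also listed at 0 in sh7 replicate 2, where Rps3 was lowest at 1801 TPM. The U17 locus Snora73a was listed at 0 in EV and in sh7 replicate 2 and stood at 2.11 TPM in sh5 and 2.36 TPM in sh7 replicate 1, while Snhg3 was lower than in EV in all 3 knockdown libraries.

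The protein-coding hosts, a list of 50 genes for ribosomal proteins, translation factors and others that carry snoRNAs in mammals, were all tested and 0 passed in any comparison. Their median log2 difference was -0.12 in sh7, with 40 of 50 below 0, and 0.06 in sh5, with 19 of 50 below 0. Over all 12728 tested genes the median was 0.09 in sh7, with 4538 below 0, and -0.05 in sh5, with 7412 below 0. Rps12, a ribosomal protein gene, stood at 2092 and 2337 TPM with the empty vector, 2621 TPM under sh5 and 1545 and 1379 TPM under sh7 (log2 difference of sh7 from EV -0.60, SE 0.104, limma adjusted p = 0.202). Its sh7 libraries lay below the other 3 and its sh5 library was the highest. Of the list of other long noncoding hosts, 5 of 10 were tested, 0 passed, and the median was 0.19 in sh7 and 0.25 in sh5. Zfas1 in that list stood at 106 and 188 TPM in the EV pair, at 205 TPM with sh5 and at 194 and 153 TPM in the sh7 pair, again lowest in EV replicate 1, and Oip5os1 at 30.5 and 29.2 TPM with the empty vector, 30.8 TPM under sh5 and 34.3 and 33.4 TPM under sh7.

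No gene of the snoRNP machinery passed the threshold. The 4 genes of the box C/D core, the methylase particle, had a median log2 difference of -0.13 in sh7 and -0.06 in sh5. In that core Snu13, which binds the kink-turn of the snoRNA, stood at 167 and 168 TPM in the EV pair, at 178 TPM with sh5 and at 142 and 127 TPM in the sh7 pair, and Nop56 at 427 and 429 TPM with the empty vector, 349 TPM under sh5 and 374 and 380 TPM under sh7. The 4 genes of the box H/ACA core were all below 0 in sh7, beside 4538 of all 12728 tested genes. Their median was -0.29 in sh7 and -0.10 in sh5. Dkc1, the pseudouridine synthase, stood at 110 and 109 TPM in the EV pair, at 73.8 TPM with sh5 and at 88.0 and 89.3 TPM in the sh7 pair, lower in every knockdown library (sh5 log2 difference -0.56, SE 0.095, limma adjusted p = 0.376). Nhp2, its partner, stood at 327 and 326 TPM with the empty vector, 375 TPM under sh5 and 279 and 256 TPM under sh7, higher in sh5 and lower in sh7 than in EV.

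The lists for assembly and trimming had medians near 0. Of the assembly genes 11 were tested, with a median of -0.06 in sh7 and -0.07 in sh5, led by Pih1d1, at 74.9 and 64.1 TPM in the EV pair, at 69.6 TPM with sh5 and at 60.9 and 55.8 TPM in the sh7 pair, and by Znhit3, at 48.9 and 42.9 TPM in EV, at 51.1 TPM with sh5 and at 42.1 and 37.8 TPM in the sh7 pair. The 17 tested genes of trimming and debranching had medians of -0.03 and -0.04. Of these, the nuclear exonuclease Xrn2 stood at 96.9 and 110 TPM with the empty vector, 94.6 TPM under sh5 and 127 and 123 TPM under sh7, and the cytoplasmic Xrn1 at 6.58 and 7.33 TPM in the EV pair, at 5.03 TPM with sh5 and at 8.72 and 10.4 TPM in the sh7 pair. Both exonucleases were highest in sh7 and lowest in sh5. The 14 nonsense-mediated decay factors had medians of 0.08 in sh7 and -0.23 in sh5. Upf2 stood at 34.4 and 33.7 TPM in the EV pair, at 24.8 TPM with sh5 and at 39.7 and 39.8 TPM in the sh7 pair, so it was lowest in sh5 and highest in sh7. The part of these levels in the host values was not tested.

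Other RNAs without a poly(A) tail were not lower in sh5 on the median. Of that list 6 genes were tested and 0 passed, with medians of 0.64 in sh7 and 0.75 in sh5. In sh5, 4 of them had a log2 difference above 0 and 2 below. Rn7s1 and Rn7s2 had the same value in every library, so the list holds fewer separate signals than genes. Rpph1 stood at 34.9 and 0 TPM with the empty vector, 0 TPM under sh5 and 0.70 and 0 TPM under sh7. Rn7sk, the RNA that holds the elongation factor P-TEFb, stood at 4.23 and 10.5 TPM with the empty vector, 14.1 TPM under sh5 and 14.7 and 19.0 TPM under sh7. Rn7s1, a signal recognition particle RNA, stood at 1.69 and 5.90 TPM in the EV pair, at 8.90 TPM with sh5 and at 7.30 and 4.77 TPM in the sh7 pair, and both were lowest in EV replicate 1. The Cajal body Scarna genes, relatives of the snoRNAs, went the other way: of 9 in the table, 3 were above 0 in each EV library, 0 in sh5 and 2 and 4 in sh7. MicroRNA hairpin genes, cut by Drosha, were above 0 for 36 and 43 of 1176 in EV, 23 in sh5 and 69 and 86 in sh7. Their summed level did not follow that count in sh5, at 4807 and 4942 TPM with the empty vector, 6752 TPM under sh5 and 7019 and 6929 TPM under sh7. Of the 23 above 0 in sh5, 9 reached 2 TPM and the median was 1.62 TPM, so a few genes made up most of that sum. The sums therefore do not describe the hairpin genes at large.

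A further 28 genes had no symbol in the table and met the rule by their reference name, and 14 of these were above 0. Snhg1, a host of many box C/D snoRNAs, stood at 189 and 210 TPM with the empty vector, 233 TPM under sh5 and 234 and 220 TPM under sh7, above EV in all 3 knockdown libraries. Snord43 stood at 8.09 and 16.7 TPM in the EV pair, at 8.95 TPM with sh5 and at 23.8 and 18.2 TPM in the sh7 pair. Snord72 was at 17.1 and 11.05 TPM with the empty vector and 6.55 and 17.3 TPM in sh7 and was listed at 0 in sh5. Snord70 and Snord71 were listed at 0 in EV and sh5 and were above 0 in both sh7 libraries, at 1.66 to 4.97 TPM.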

How the data were processed

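Values deposited by the authors were TPM for 55357 Ensembl mouse genes, each library summing to 1e+06. Per the submitters' processing notes, kallisto 0.48.0 was used; per the labels' protocols, RNA was selected with oligo(dT) beads and read from random hexamers. The build, annotation and strand setting are not stated in the labels or headers, TPM keeps no depth, and no counting interval was derived.

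Tests used limma 3.58.1 in R 4.3.3 (lmFit, eBayes with trend) on log2(TPM + 1) for the 12728 genes that averaged 1 TPM or more, two-sided, with Benjamini-Hochberg adjustment over all of them and 0.05 as threshold. A 3-group model gave each shRNA against EV and sh7 against sh5, with the lone sh5 library assumed to vary like the others, and a 2-arm model gave knockdown against EV. Fold changes on this scale understate changes of low genes. Nothing in the labels says that replicates were separate cultures, so p-values measure only how these samples spread, and that spread may be technical. The tests were tried on simulated data.

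Lists were described by counts and medians. Members, lists and rules were chosen with earlier results of these data known. Named were hosts with a mean of at least 1 TPM, the 15 most abundant loci with those at 0 in one of EV and sh7, the 3 members with the smallest p per comparison and 2 genes per list (some that meet these rules are not reported here), and further pairs chosen after their values were seen. RefSeq tables (GRCm38.p6) matched 52081 gene IDs and gave spans, lengths and promoters.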

Additional observations from a re-analysis of the deposited data

Results flagged for a closer look

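The summed TPM of the small RNA loci moved in opposite directions in the knockdowns: sh5 lay below both EV libraries and both sh7 libraries lay above them, and the sh7 mean was 159.6 TPM above the sh5 value. This difference was not tested, as sh5 has 1 library. The number of box H/ACA loci above 0 did the same, with 11 in sh5, 13 and 15 in EV and 16 in each sh7 library, and the sh7 mean was 5 loci above sh5. This difference was also not tested. The rise of both sh7 sums above EV did not hold within either class. Box C/D loci summed to 166 and 121 TPM with the empty vector, and sh7 replicate 2, at 136 TPM, fell between them. For box H/ACA the EV sums were 56.3 and 131 TPM, and sh7 replicate 1 (99.5 TPM) and sh5 (61.0 TPM) fell between them. The other sh7 sums, 172 TPM for box C/D and 174 TPM for box H/ACA, were above EV. The sh5 sum for box C/D, 70.3 TPM, was below EV.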

How the results depend on the processing

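Of the alternatives, 148 summary values kept their side of the threshold or their size and 5 did not. A host median counted as kept if it moved by no more than 0.226, a within-group spread that EV replicate 1 widens. So the falls without that library from 0.27 to 0.05 in sh7 and from 0.31 to 0.09 for knockdown counted as kept. Of 367 values of single members, 360 kept direction and side and 2 reversed, and the rest newly passed, all without EV replicate 2. For sh7 and sh5 against EV, members passed only without EV replicate 2, a fit with a lone EV library in which calls rose over all genes too. Members called stayed at 0 for the other comparisons. With single libraries left out, host medians ranged over 0.05 to 0.33 in sh7, 0.062 (without EV replicate 1) to 0.36 in sh5, -0.06 to 0 for sh7 against sh5 and 0.09 to 0.35 for knockdown. The sh5 locus sum over EV was 0.461 without the most abundant locus, against 0.553, and the ratio of loci above 0 was 0.575 with at least 1 TPM required, against 0.63. Loci lower in sh5 numbered 25 of 45 against both EV libraries, 24 under median-of-ratios scaling, and 31 and 33 against a single EV library, a looser comparison. That scaling moved the all-gene median for sh7 against sh5 from 0.16 to 0.01 and the host median from -0.06 to -0.22 (for sh5 against EV from 0.36 to 0.44), and quantile normalization moved the medians for sh7 against EV from 0.09 to -0.02 and from 0.27 to 0.09.

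Whether the replicate numbers pair the samples was not settled. Deviations of EV and sh7 libraries of the same number correlated at r = -0.0158, but 2 libraries per group give a single such value. With the replicate number as a block, 0 members passed in each comparison, host medians were 0.41 for sh5 against EV and -0.20 for sh7 against sh5, and the log2 difference of Snhg20 in sh5 turned from -0.15 to 0.048; over single libraries left out it ranged from -0.36 to 0.073, the latter without EV replicate 2. Depth is unknown, 2 libraries per group give few degrees of freedom, and the 0 calls do not show that the members did not change.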
